A study of Mus musculus with 8 samples.

Results

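ABC drug efflux and bile transporters are membrane pumps that use ATP to move drugs, conjugates, bile salts and lipids out of cells. The 10 genes described here are Abcb1a, Abcb1b, Abcb4, Abcb11, Abcc1, Abcc2, Abcc3, Abcc4, Abcc5 and Abcg2, chosen by name, with current or older symbols. These genes, and the lists used below, were chosen with earlier results of these data known. The 10 genes were matched to 20 of the 41174 probes of a mouse array by the gene name in the authors' deposited table. They are 10 of 19439 named genes. Colon RNA of 8 male mice was measured, 1 array per mouse. On 4 arrays the RNA came from Mdr1a-/- mice (FVB/N background) whose colonic histological injury score was high, and on 4 arrays it came, as labelled, from wild type FVB/N mice whose score was low. By the labels, all mice ate the AIN-76A powdered control diet and were 21 to 24 weeks old. Genotype and injury score change together between the groups, and mice were selected on the score, so the 2 cannot be told apart. Mdr1a is the older name of Abcb1a, and the question put to these probes was whether other efflux transporters were higher where Abcb1a is disrupted. Nothing in the labels says where in the gene the disruption lies.

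In the intestine, P-glycoprotein sits in the apical membrane of enterocytes and returns hydrophobic drugs and toxins to the lumen. Mice make it from a pair of genes, Abcb1a and Abcb1b, where humans have one. Other pumps share parts of this work, with Abcg2 and Abcc2 on the apical side and Abcc1 and Abcc3 on the basolateral side, while Abcb4 and Abcb11 are known above all for secretion of phospholipid and bile salt by the liver. Mice without Abcb1a can develop colitis and are used as a model of inflammatory bowel disease.

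Each value below is the log2 ratio of a mouse's colon RNA, labelled with Cy3, to 1 reference pool in Cy5, made from adult Swiss mice (liver, kidney, colon and small intestine) and whole fetuses. A ratio of 0 is the level of that pool, and ratios of different probes do not rank the genes by level. On each array 67% to 86.3% of the probes rose above background. Of the 8 absorptive colonocyte markers, all were above background on every array, and 2 were called lower. The mean ratio of the 8 lay between -1.12 and -0.18 in Mdr1a-/- mice and between -0.32 and 0.42 on the arrays labelled FVB/N. These ranges overlapped. Neutrophil markers (7 of 8 measured, 3 called higher) had means of 1.15 to 2.50 against -1.06 to -0.21, macrophage markers (8, 1 higher) 0.88 to 1.51 against -0.12 to 0.60, and T cell markers (6 of 7, 2 higher) 0.27 to 0.63 against -0.13 to 0.09. Endothelial markers overlapped, at -0.91 to -0.21 against -0.76 to -0.62, as did small intestinal (-2.85 to -2.31 against -3.20 to -2.70), liver (-2.65 to -2.25 against -2.57 to -2.08), kidney (-2.45 to -1.94 against -2.49 to -2.27), smooth muscle (-0.81 to 0.13 against -0.24 to 0.46), adipose (-0.60 to -0.03 against -0.97 to 1.91) and pancreatic markers (-1.23 to 0.83 against -0.11 to 1.55). No marker of these 11 lists was below background on all 8 arrays. The part of these cells in the values below was not tested, and in a piece of tissue fewer cells of a type and less RNA per cell cannot be told apart. Of the slides, 3 of 4 in the Mdr1a-/- group and 0 of 4 in the FVB/N group are among those that the labels' protocol lists, so the second group is called the arrays labelled FVB/N, and every direction rests on the labels. The series' design text also refers to arrays from an earlier comparison, of Mdr1a-/- mice on a curcumin diet with low scores. Whether any file labelled FVB/N holds such a mouse was not tested, and if it did, the differences below would not be between genotypes.

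No member was called in either direction: 0 of 20 probes were higher and 0 lower at a limma adjusted p under 0.05, where 1.53% of all probes were called higher and 1.45% lower. The adjusted p of the 20 ran from 0.0753 to 0.976. At an unadjusted p under 0.05 there were 9 probes, 7 of them higher and 2 lower, which is 45% against 14.9% of all probes. Probes of the same gene are not independent, and Abcb1b, Abcc5 and Abcg2 each gave 2 of the 9. The 2 groups of arrays did not overlap for 6 of the 20 probes, 2 each of Abcb1b, Abcc5 and Abcg2, against 10.3% of all probes. Counted once per gene by its brightest probe, 3 of 10 members (30%) had fully separate arrays, against 13.8% of 19439 named genes. With so few members and 4 arrays a group, these percentages are given as a description. The median log2 fold change was 0.04 over the 20 probes and 0.02 over all probes. The widths on either side of the estimate in the 95% intervals ran from 0.311 to 1.46 with a median of 0.466 on the log2 scale, and the spread between mice is what these p-values and intervals measure. Across the array 628 probes were called higher and 598 lower, and 422 and 778 when the Cy3 channel was used alone.

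**Figure D1:**
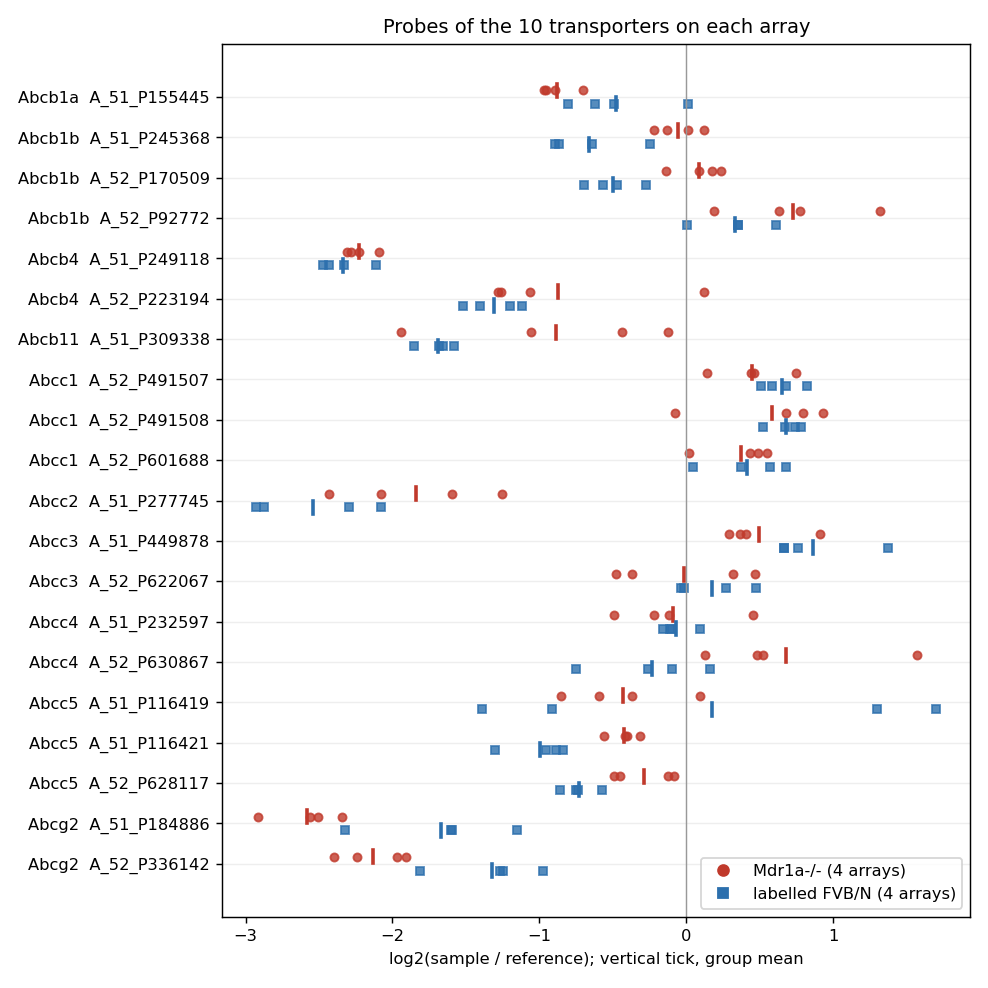
Log2(sample / reference) of each of the 20 probes of the 10 transporters on each array, with circles for the 4 Mdr1a-/- arrays, squares for the 4 arrays labelled FVB/N and a vertical tick for each group mean. Circles and squares do not overlap for 2 probes each of Abcb1b, Abcc5 and Abcg2, and no probe passed an adjusted p of 0.05.

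The first group of members is the neighbouring set Abcb1a, Abcb1b and Abcb4, which follow one another on chromosome 5 in RefSeq. Their promoter windows (250 bases before to 50 after the start of the gene, RefSeq, GRCm38.p6, all on the plus strand) are shown because the 3 genes lie side by side and their measured values differ. Capitals mark matches, on either strand, to any of 6 motifs: the GC box GGGCGG, the CCAAT box CCAAT, the aryl hydrocarbon receptor core GCGTG, the antioxidant response core TGACNNNGC, the nuclear receptor core AGGTCA and an interferon response core. No 2 capital runs overlap in these 3 windows.
Abcb1a, chr5:8566841-8567140: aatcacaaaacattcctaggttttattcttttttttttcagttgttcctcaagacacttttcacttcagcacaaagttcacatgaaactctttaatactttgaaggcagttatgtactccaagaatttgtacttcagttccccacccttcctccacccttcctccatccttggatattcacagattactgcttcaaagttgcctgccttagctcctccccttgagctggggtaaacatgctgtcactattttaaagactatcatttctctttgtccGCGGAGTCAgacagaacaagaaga
Abcb1b, chr5:8797897-8798196: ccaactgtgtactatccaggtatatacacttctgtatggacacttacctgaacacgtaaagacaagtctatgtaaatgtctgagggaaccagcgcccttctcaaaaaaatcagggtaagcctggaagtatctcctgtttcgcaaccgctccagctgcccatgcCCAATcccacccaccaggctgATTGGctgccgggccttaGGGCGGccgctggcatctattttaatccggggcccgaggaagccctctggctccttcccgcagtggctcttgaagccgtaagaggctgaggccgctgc
Abcb4, chr5:8893471-8893770: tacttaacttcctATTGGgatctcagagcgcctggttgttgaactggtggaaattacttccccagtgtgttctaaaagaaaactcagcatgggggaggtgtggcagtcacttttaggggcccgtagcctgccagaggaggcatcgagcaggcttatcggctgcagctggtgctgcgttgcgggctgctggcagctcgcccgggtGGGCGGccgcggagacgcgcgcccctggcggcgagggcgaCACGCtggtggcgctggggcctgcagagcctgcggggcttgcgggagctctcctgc

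These windows differ in composition, with a GC content of 40.3% for Abcb1a, 55% for Abcb1b and 64% for Abcb4. The Abcb1a window holds 1 antioxidant response core and neither a GC box nor a CCAAT box. The Abcb1b window holds 2 CCAAT boxes and 1 GC box, and the Abcb4 window holds 1 CCAAT box, 1 GC box and 1 aryl hydrocarbon receptor core. Of all 32851 windows in the table, 35.7% hold the GC box, 37.4% the CCAAT box, 32.4% the aryl hydrocarbon receptor core and 12.4% the antioxidant response core. Windows were found for 8 of the 10 members, 11 in all, and 5 of the 11 hold a GC box, 4 a CCAAT box, 4 the aryl hydrocarbon receptor core, 4 the antioxidant response core, 4 the nuclear receptor core (16.3% of all windows) and 0 the interferon response core (3.44%). Abcg2 has 3 of these windows and Abcc4 has 2. Counted by gene, the antioxidant response core and the nuclear receptor core are in 3 members each. The GC box, the CCAAT box and the aryl hydrocarbon receptor core are in 4 members each. A match is a run of letters and not a tested binding site.

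Abcb1a, the gene that the Mdr1a-/- mice are named for, was measured by 1 dim probe (A_51_P155445). Its log2(sample / reference) was -0.89, -0.95, -0.70 and -0.97 in Mdr1a-/- replicates 1 to 4 and -0.80, 0.01, -0.49 and -0.62 on the arrays labelled FVB/N. The groups overlapped, since labelled FVB/N replicate 1 lay below Mdr1a-/- replicate 3. The net Cy3 signal of the probe was 1.08, 1.05, 0.88 and 1.02 times the background limit of its array in Mdr1a-/- mice and 1.28, 1.61, 1.72 and 1.83 times on the arrays labelled FVB/N, so on this scale, which is not normalized between arrays, all 4 Mdr1a-/- arrays were lower. The groups differed by -0.40 ± 0.19 on the log2 scale (SE, 95% interval -0.83 to 0.02, limma adjusted p = 0.362). It was -0.65 by the Cy3 channel alone and -0.23 without background correction, and its adjusted p lay between 0.262 and 0.761 over 17 alternatives. The sources used here do not say whether the probe lies in the disrupted part of the gene, so it cannot serve as a check of the genotype.

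Abcb1b, which encodes the other mouse P-glycoprotein, was measured by 3 probes, each with a positive fold change. The probe A_52_P170509 read 0.17, 0.08, -0.14 and 0.24 in Mdr1a-/- replicates 1 to 4 and -0.56, -0.27, -0.70 and -0.47 on the arrays labelled FVB/N. All 4 Mdr1a-/- arrays were above all 4 others, with a log2 fold change of 0.59 ± 0.15 (SE, limma adjusted p = 0.0771), which is 1.51-fold. The second probe, A_51_P245368, read 0.01, -0.22, 0.12 and -0.13 against -0.86, -0.25, -0.89 and -0.64. Here too the groups did not overlap, though Mdr1a-/- replicate 2 and labelled FVB/N replicate 2 differed by little, and the fold change was 0.61 ± 0.18 (adjusted p = 0.115). The third probe, A_52_P92772, gave 0.40 ± 0.24 (adjusted p = 0.507) with overlapping groups. The mean over the 3 probes was the single higher call among the members when the fit was run on gene means, at 0.53 ± 0.12 (SE, limma adjusted p = 0.0296 over 19439 genes). The share of all genes called in that fit is not given here. Within the 2 file dates that hold both groups the first probe differed by 0.76 and 0.24 and the second by 0.77 and 0.57. Abcb1a and Abcb1b are close paralogs, and cross-hybridisation of their probes was not tested because the probe sequences were not used here.

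Abcb4, the phospholipid transporter of the bile canaliculus, was measured by 2 probes. A_51_P249118 read -2.09, -2.23, -2.31 and -2.28 in Mdr1a-/- mice and -2.47, -2.11, -2.43 and -2.33 on the arrays labelled FVB/N. The groups overlapped, and the fold change of 0.11 ± 0.14 (SE, limma adjusted p = 0.794) had a 95% interval from -0.20 to 0.42. The second probe, A_52_P223194, was below background on all 8 arrays, so its fold change is not described here. The probe stays in the counts over all member probes, in the Abcb4 mean set against Abcb1a and in the comparison with the authors' deposited table.

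Since Abcb1a and Abcb1b had fold changes of opposite sign, each other member was also set against Abcb1a on the same array, as the mean ratio over its probes minus that of Abcb1a. For Abcb1b this value was 1.02, 1.35, 0.96 and 1.22 in Mdr1a-/- replicates 1 to 4 and 0.53, -0.18, 0.08 and 0.37 on the arrays labelled FVB/N. The groups did not overlap and differed by 0.94 on the log2 scale, with p = 0.0286 in a two-sided exact permutation test over the 70 possible groupings, the smallest p that 4 against 4 arrays can give. Abcb4 and Abcc4 reached the same p with differences of 0.68 and 0.85, though the Abcb4 mean includes a probe below background on all 8 arrays. Adjusted over the 9 members compared, the lowest p was 0.0857, so 0 of 9 passed, against 3 at an unadjusted p under 0.05. With 4 against 4 arrays none could have passed unless at least 6 of the 9 reached the smallest p, so this count says little about the members. The other 6 differences were 1.21 for Abcb11 (p = 0.114, exact permutation), 1.11 for Abcc2 (p = 0.0857), 0.29 for Abcc1 (p = 0.343), 0.12 for Abcc3 (p = 0.743), 0.54 for Abcc5 (p = 0.371) and -0.46 for Abcg2 (p = 0.114). All 9 use the same Abcb1a values, from a probe at about the background limit in Mdr1a-/- mice, so they are not independent of each other. The difference of Abcb1a itself (-0.40) is subtracted from each, so a member with no difference of its own would read that size above 0, and the permutation tests are against 0.

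**Figure D2:**
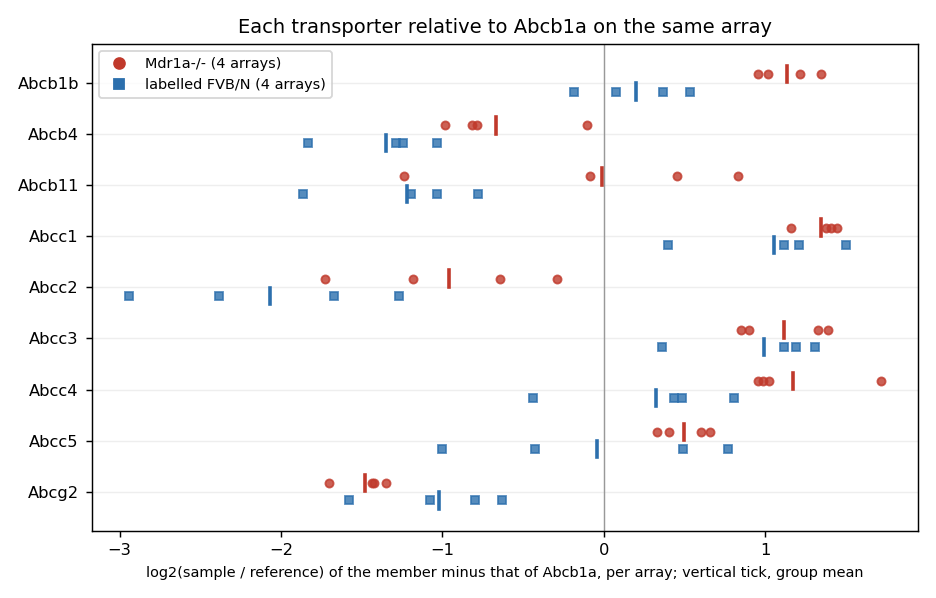
Log2(sample / reference) of each of 9 transporters, as the mean over its probes, minus that of Abcb1a on the same array, with circles for Mdr1a-/- arrays, squares for arrays labelled FVB/N and ticks for group means. For Abcb1b, Abcb4 and Abcc4 the circles lie above all squares (p = 0.0286, exact permutation, 0.0857 adjusted over 9).

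Among the apical pumps, Abcg2 had the most negative fold changes of the 10 genes. Abcg2 encodes the breast cancer resistance protein, which exports urate, porphyrins and many drugs. Its probe A_51_P184886 read -2.51, -2.91, -2.34 and -2.56 in Mdr1a-/- replicates 1 to 4 and -1.60, -1.15, -2.33 and -1.59 on the arrays labelled FVB/N. The groups only just failed to overlap, because labelled FVB/N replicate 3 stood close to Mdr1a-/- replicate 3. The fold change was -0.91 ± 0.25 (SE, limma adjusted p = 0.0919), which is 1.88-fold lower in the measured means. The other probe, A_52_P336142, read -1.97, -2.40, -1.90 and -2.24 against -1.27, -0.97, -1.81 and -1.25. It gave -0.81 ± 0.20 (adjusted p = 0.0753), the lowest adjusted p of the 20. Both probes passed without labelled FVB/N replicate 3 (-1.13 and -0.97, adjusted p = 0.034 and 0.0429) and with array weights. The gene mean passed at -0.86 ± 0.21 (adjusted p = 0.0472), in a fit whose share of called genes is not given here. Over all 17 alternatives the adjusted p of the 2 probes ran from 0.0334 to 0.541 and from 0.0271 to 0.565. Within the 2 file dates that hold both groups the differences were -0.75 and -0.97 for the first probe and -0.65 and -0.79 for the second. The mean of the absorptive colonocyte markers ran from -1.12 to -0.18 in Mdr1a-/- mice and from -0.32 to 0.42 on the arrays labelled FVB/N. These ranges overlapped. The value of -1.12 was that of Mdr1a-/- replicate 3, and replicates 1, 2 and 4 read -0.27, -0.18 and -0.34. The part of these cells in the Abcg2 values was not tested.

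Abcc2, the apical exporter of glucuronide and glutathione conjugates, read -2.08, -1.60, -2.43 and -1.26 in Mdr1a-/- mice and -2.08, -2.93, -2.87 and -2.30 on the arrays labelled FVB/N (A_51_P277745). The ranges overlapped, and 3 Mdr1a-/- arrays and 2 of the others exceeded background. Its fold change of 0.70 ± 0.29 (SE, limma adjusted p = 0.292) had an interval from 0.05 to 1.36.

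Abcb11, the bile salt export pump of hepatocytes, was well above background on all 8 arrays (A_51_P309338), with a net Cy3 signal 2.23 to 11.3 times the limit. It read -0.44, -0.12, -1.94 and -1.06 in Mdr1a-/- replicates 1 to 4 and -1.58, -1.85, -1.68 and -1.66 on the arrays labelled FVB/N. The labelled FVB/N arrays lay close together, while 3 Mdr1a-/- arrays were higher than all of them and replicate 3 was lower than all of them. The fold change was 0.80 ± 0.34 (SE, limma adjusted p = 0.312). Without Mdr1a-/- replicate 3, which is also the Mdr1a-/- array whose slide the protocol does not list, it was 1.16 and passed (adjusted p = 0.0303). Within the 2 file dates that hold both groups the difference was 1.35 and -0.19, the second resting on that replicate alone. Liver markers, which include albumin, did not separate the groups (-2.65 to -2.25 against -2.57 to -2.08).

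Of the multidrug resistance proteins of the Abcc family, Abcc5 had 2 probes whose groups did not overlap and 1 that disagreed with them. It encodes an exporter of cyclic nucleotides and was measured by 3 probes of 2 RefSeq transcripts. A_51_P116421 read -0.31, -0.56, -0.40 and -0.42 in Mdr1a-/- mice and -0.84, -1.30, -0.96 and -0.89 on the arrays labelled FVB/N. All Mdr1a-/- arrays were above all others, with a fold change of 0.57 ± 0.15 (SE, limma adjusted p = 0.0823), and 0.48 without background correction, where it passed (adjusted p = 0.0229). A_52_P628117, named by another transcript, read -0.49, -0.45, -0.12 and -0.08 against -0.58, -0.75, -0.74 and -0.86. These groups did not overlap either, and the fold change was 0.44 ± 0.15 (adjusted p = 0.184). The third probe, A_51_P116419, gave -0.61 ± 0.65 (adjusted p = 0.748). It was above background on 2 arrays of each group, and the arrays labelled FVB/N spread from -1.39 to 1.70 on it. That spread followed the file date: replicates 1 and 3, of one date, read 1.30 and 1.70, and replicates 2 and 4, of another, read -0.91 and -1.39. Within these dates the groups differed by -1.88 and 0.78.

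Abcc4, which exports prostaglandins and cyclic nucleotides, gave unlike values on its 2 probes. A_52_P630867 read 0.48, 0.13, 1.58 and 0.52 in Mdr1a-/- mice and 0.16, -0.75, -0.10 and -0.26 on the arrays labelled FVB/N. Mdr1a-/- replicate 3 stood highest, and replicate 2 overlapped with labelled FVB/N replicate 1. Its fold change of 0.91 ± 0.31 (SE, limma adjusted p = 0.191) was 0.27 within the file date that holds 2 arrays of each group and 2.08 within the date that holds replicate 3. The dimmer probe A_51_P232597 gave -0.02 ± 0.20 (adjusted p = 0.976) and was above background on 3 arrays of each group. The 2 probes are named by different cDNA clones, and their places in the gene were not used here.

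Abcc1 and Abcc3, the basolateral exporters of glutathione conjugates and leukotriene C4 (Abcc1) and of glucuronides and bile salts (Abcc3), had differences below 0 on all 5 probes, none of which passed. The 3 probes of Abcc1 gave -0.04, -0.09 and -0.20, with 95% intervals that together run from -0.58 to 0.40. For its brightest probe, A_52_P601688, the Mdr1a-/- arrays read 0.43, 0.02, 0.55 and 0.49 and the labelled FVB/N arrays 0.68, 0.05, 0.57 and 0.37. The groups overlapped almost throughout. Abcc3 read 0.29, 0.37, 0.91 and 0.41 in Mdr1a-/- mice and 0.66, 0.76, 1.37 and 0.67 on the arrays labelled FVB/N for its brighter probe, A_51_P449878. Only Mdr1a-/- replicate 3 entered the range of the others, and the fold change was -0.37 ± 0.21 (SE, limma adjusted p = 0.473). Its second probe, A_52_P622067, gave -0.19 ± 0.24 (adjusted p = 0.801). The direction of all 5 probes changed with the file date. Within the date that holds 2 arrays of each group, the Abcc1 probes differed by -0.40, -0.40 and -0.30 and the Abcc3 probes by -0.69 and -0.54. Within the date that holds Mdr1a-/- replicate 3 alone of its group, the differences were 0.34, 0.34 and 0.20, and 0.19 and 0.24.

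The authors' deposited table gives fold changes for the same comparison, and for 4 of the 6 probes of the chromosome 5 members they lie outside the 95% interval of these arrays. The authors' deposited table has Abcb1a at -1.62 (adjusted p = 9.75e-05), Abcb4 at -1.12 (A_51_P249118, adjusted p = 0.000273) and Abcb1b at -0.69, -0.26 and 0.08 (A_51_P245368, A_52_P170509 and A_52_P92772, adjusted p = 0.00569, 0.199 and 0.757). The arrays gave -0.40, 0.11, 0.61, 0.59 and 0.40 for these probes. The Abcb1b probe A_52_P92772 and the Abcb4 probe A_52_P223194, at 0.15 in the authors' deposited table and below background on the arrays, lie inside the intervals, as do all 14 probes of the other members. The probes called in that table for other members had the same sign on the arrays. Abcg2 is at -0.89 and -0.77 in the authors' deposited table (adjusted p = 0.00669 and 0.0105) and at -0.91 and -0.81 on the arrays. Abcc5 is at 0.51 and 0.33 in the authors' deposited table (adjusted p = 0.00241 and 0.0273) beside 0.57 and 0.44, Abcc4 at 0.83 (adjusted p = 0.0261) beside 0.91, Abcb11 at 0.80 (adjusted p = 0.0326) beside 0.80, and Abcc2 at 0.35 (adjusted p = 0.0408) beside 0.70. The Abcc1 and Abcc3 probes, between 0.02 and 0.20 in the authors' deposited table, were not called there, and on the arrays they lay between -0.37 and -0.04. The authors' deposited table calls 5 member probes higher and 5 lower, where it calls 6.31% of its spots higher and 4.39% lower. Its t and p values correspond to a median of 18.7 degrees of freedom, against 9.41 in the fit to these 8 arrays. Values outside the 95% interval were not limited to chromosome 5 members. In the lists below they include Ppara (-0.42, interval -1.61 to -0.93), Vdr (-0.61, -1.45 to -0.77), Nr5a2 (-0.63, -1.94 to -0.74) and Slc51b (0.46, 0.57 to 1.78). Those of Tap1, Abcg5, Hnf4a, Cyp3a13, Sult1a1, Gstm1 and Gstm3 lie inside. The share of all probes outside their interval was not counted.

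**Figure D3:**
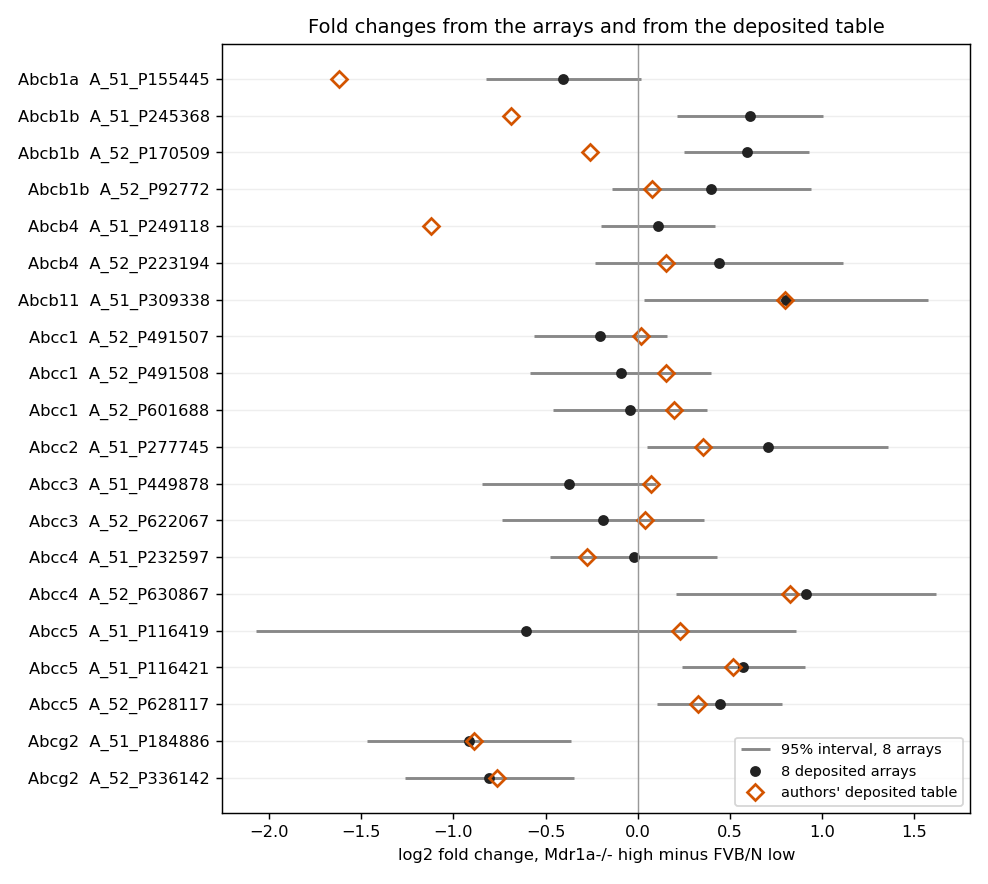
Log2 fold change of each member probe, Mdr1a-/- high minus FVB/N low, from the 8 arrays (filled circles with 95% intervals) and from the authors' deposited table (open diamonds). The diamonds of Abcb1a (-1.62), Abcb4 A_51_P249118 (-1.12) and 2 Abcb1b probes (-0.69 and -0.26) lie outside the intervals.

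In a list of other ABC family genes, which is not the whole family, 1 gene was called higher and 1 lower. Of 41 measured genes of 42 listed, 39 did not pass, and the median log2 fold change was 0.06, against 0.03 over 19439 named genes by their brightest probe. Of those genes 439 (2.26%) were higher and 422 (2.17%) lower. The antigen peptide transporter Tap1, which loads MHC class I, rose by 1.70 ± 0.30 (SE, limma adjusted p = 0.0192). Its arrays read 1.16, 0.10, 0.13 and 1.23 in Mdr1a-/- mice and -0.88, -0.79, -1.01 and -1.52 on the arrays labelled FVB/N. The sterol transporter Abcg5, which returns plant sterols to the lumen, fell by 1.44 on the log2 scale (-1.44 ± 0.24, adjusted p = 0.0135). It read -2.91, -2.41, -1.93 and -2.86 against -0.87, -1.27, -0.87 and -1.33. Neither gene's groups overlapped. The partner of Tap1, Tap2, did not pass (0.86 ± 0.22, adjusted p = 0.0834), nor did the partner of Abcg5, Abcg8 (0.11 ± 0.13, adjusted p = 0.781). Leaving out Mdr1a-/- replicates 1 or 4, or replicates 3 or 4 of the labelled FVB/N arrays, ended the Tap1 call (adjusted p up to 0.061). Leaving out Mdr1a-/- replicate 4 or replicate 3 of the labelled FVB/N arrays ended the Abcg5 call (adjusted p up to 0.0506). With the file date as a block neither passed (1.46 for Tap1 and -1.33 for Abcg5, adjusted p = 0.0967 and 0.0958). In the authors' deposited table Tap1 is at 1.27 and Abcg5 at -1.04 (adjusted p = 0.000155 and 0.031).

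Genes of bile acid uptake, binding and signalling showed no call: of 16 measured members 0 were higher and 0 lower, with a median of 0.18, and limma gave the smallest p for Slc51b, Slco2b1 and Slc27a5. Slc51b, the beta subunit of the basolateral bile acid exporter, read -1.03, -1.03, -1.87 and -0.78 in Mdr1a-/- mice and -2.53, -1.81, -2.67 and -2.42 on the arrays labelled FVB/N. Mdr1a-/- replicate 3 overlapped with labelled FVB/N replicate 2, and the fold change of 1.18 ± 0.27 missed the threshold (SE, limma adjusted p = 0.0524). Its alpha subunit, Slc51a, gave -0.18 ± 0.18 (adjusted p = 0.736). The uptake carrier Slco2b1 gave -0.71 ± 0.20 (adjusted p = 0.103) and the bile acid ligase Slc27a5 gave 0.46 ± 0.16 (adjusted p = 0.183), and the groups did not overlap for either. The ileal hormone gene Fgf15 and the apical bile acid carrier Slc10a2 gave 0.30 ± 0.15 and 0.09 ± 0.44 (adjusted p = 0.413 and 0.954).

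Among the listed regulators of the transcription of these transporters, 4 of 20 were called lower, 0 higher and 16 did not pass, with a median of -0.16. Over all named genes 2.17% were called lower and 2.26% higher. Ppara, the fatty acid receptor, read -2.54, -2.52, -2.43 and -2.63 in Mdr1a-/- mice and -1.22, -1.56, -1 and -1.27 on the arrays labelled FVB/N, a fall of 1.27 on the log2 scale (limma adjusted p = 0.00342). The vitamin D receptor Vdr read -0.61, -0.49, -0.29 and -0.57 against 0.36, 0.57, 0.81 and 0.74, with a fold change of -1.11 ± 0.15 (adjusted p = 0.00638). For both receptors the groups lay well apart, and both were called in all 8 fits that left out 1 array. The bile acid regulator Nr5a2 and the hepatocyte and enterocyte factor Hnf4a also fell (-1.34 ± 0.27 and -1.13 ± 0.24, adjusted p = 0.0311 and 0.0401). When 1 array at a time was left out, Nr5a2 was called in 2 of 8 fits, those lacking Mdr1a-/- replicate 2 or replicate 1 of the labelled FVB/N arrays (adjusted p up to 0.103 otherwise). Hnf4a was called in 1 of 8, the fit lacking Mdr1a-/- replicate 3 (up to 0.12 otherwise). The xenobiotic receptor Nr1i2, known as PXR, gave -0.54 ± 0.15 (adjusted p = 0.1). The bile acid receptor Nr1h4, Ahr and the antioxidant factor Nfe2l2 gave -0.32 ± 0.24, 0.23 ± 0.20 and -0.15 ± 0.31 (adjusted p = 0.617, 0.678 and 0.888). With the file date as a block, Ppara passed (adjusted p = 0.034) and Vdr, Nr5a2 and Hnf4a did not (0.0623, 0.134 and 0.0749). The authors' deposited table has smaller falls, at -0.42 for Ppara, -0.61 for Vdr, -0.63 for Nr5a2 and -0.88 for Hnf4a. Its adjusted p are 0.0314, 0.00283, 0.122 and 0.0057, so Nr5a2 is not called there.

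Of 23 measured drug-metabolizing enzymes among the targets of these receptors, 4 were called lower, 0 higher and 19 did not pass, with a median of -0.15, where 2.17% of all named genes were called lower. The cytochrome P450 Cyp3a13 fell by 1.68 on the log2 scale (3.21-fold lower, limma adjusted p = 0.00284) and the phenol sulfotransferase Sult1a1 was 3.8-fold lower (adjusted p = 0.00645). Cyp3a13 read -2.64, -2.50, -2.51 and -3.02 in Mdr1a-/- mice and -0.95, -0.72, -1.40 and -0.88 on the arrays labelled FVB/N. Sult1a1 read -1.10, -0.92, -0.41 and -1.72 against 1.00, 0.98, 0.51 and 1.05. In both enzymes every Mdr1a-/- array was lower than every other array. The glutathione transferases Gstm1 and Gstm3, which make conjugates of the kind that Abcc1 and Abcc2 export, fell as well (-1.37 ± 0.19 and -1.14 ± 0.20, adjusted p = 0.00668 and 0.0184). They are similar paralogs whose probes may share signal. With each array left out in turn, Gstm3 kept its call in 3 of 8 fits and lost it when Mdr1a-/- replicates 1 or 4, or replicates 1, 3 or 4 of the labelled FVB/N arrays, were missing (adjusted p up to 0.0702). The other 3 enzymes were called in all 8 fits. With the file date as a block Cyp3a13 and Sult1a1 passed (adjusted p = 0.0208 and 0.018), and Gstm1 and Gstm3 did not (0.0521 and 0.0838). In the authors' deposited table Cyp3a13, Sult1a1, Gstm1 and Gstm3 are at -1.49, -2.10, -1.04 and -1.05, all called there. Between the same groups 6 leukocyte markers rose. Of the 8 colonocyte markers, Slc26a3 and Car4 fell (-2.54 and -2.13), and 6 did not pass, of which Aqp8 and Cdhr5 had negative values (-0.90 and -0.61) and Car1, Slc9a3, Krt20 and Guca2a positive ones (0.83, 0.40, 0.08 and 0.03). Their part was not tested.

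**Figure D4:**
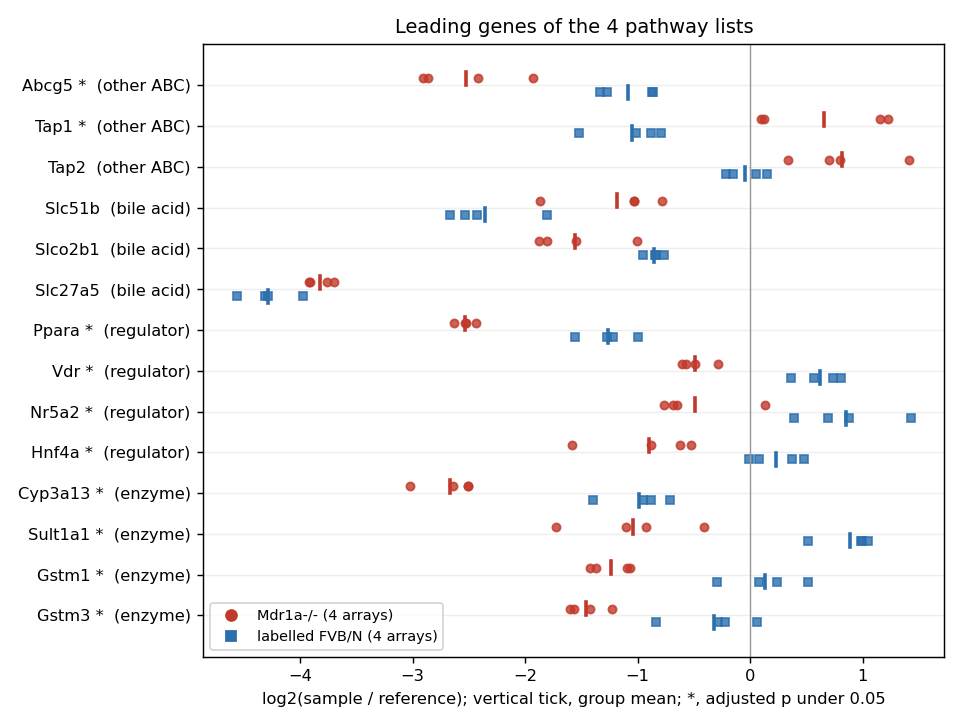
Log2(sample / reference) on each array of the called genes and the 3 genes with the smallest p in each of 4 pathway lists, with circles for Mdr1a-/- arrays, squares for arrays labelled FVB/N, ticks for group means and a star for an adjusted p under 0.05. Of the starred genes, Tap1 is higher in Mdr1a-/- mice and Abcg5, Ppara, Vdr, Nr5a2, Hnf4a, Cyp3a13, Sult1a1, Gstm1 and Gstm3 are lower.

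Across the 8 arrays, the named genes whose ratios ran most like that of Abcb1a were Ier2, Fbxl12 and Ovol1, with Pearson r = 0.978, 0.971 and 0.965 among 19429 genes. These are the highest values of a search over many genes with 8 points that share a reference, and are given as a description.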

How the data were processed

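Colon RNA of 8 mice was measured on 2-colour arrays against a common reference. Per the file headers and the deposited description, each file holds mean foreground and background intensity of both channels and a log2 ratio. That log2 column equals Cy5 over Cy3 after background subtraction and loess, so its sign was turned. The submitters' processing notes name limma, and the labels state no version. In the authors' deposited table the fold changes are described as log10. Set against log2 fold changes from the arrays without background correction, they had a slope of 0.87, so they were read as log2 values. That table also holds p-values and a t score, as deposited by the authors.

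Here, limma 3.58.1 in R 4.3.3 was used: normexp background (offset 50), loess without control spots, and replicate spots averaged to 41174 probes. Groups were compared by lmFit and eBayes, with Benjamini-Hochberg adjustment over all probes. Above background means a net Cy3 signal over the 95th percentile of 314 negative control spots. Intervals cover the spread between 4 arrays a group, and the number of arrays limits the precision. Exact two-sided permutation tests compared members with Abcb1a. The fit was tested on simulated data. Replicate numbers are shared between groups but are not said to pair mice (deviations correlated at 0.06, 0.11, 0.03 and -0.03), so no block was used. The members, 4 pathway lists and 11 marker lists were chosen with earlier results of these data known. Genes were named by rule: all member probes, and in each list the called genes and the 3 with the smallest p. Genes outside that rule (Abcg8, Slc51a, Fgf15, Slc10a2, Nr1i2, Nr1h4, Ahr and Nfe2l2) were chosen after their values were seen. RefSeq tables of GRCm38.p6 gave names and promoter sequences. The alternatives tried were other background corrections, normalizations, filters, weights, blocks and each array left out.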

Additional observations from a re-analysis of the deposited data

Results flagged for a closer look

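On the Abcb4 probe A_52_P223194, Mdr1a-/- replicate 2 stood apart from its group: it read 0.12, and the other 3 Mdr1a-/- arrays lay between -1.28 and -1.06. The gap was 0.843 of the range of the group. The probe was below background on all 8 arrays.

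On the Abcc3 probe A_51_P449878, labelled FVB/N replicate 3 read 1.37, and the other 3 arrays labelled FVB/N lay between 0.66 and 0.76, a gap of 0.866 of the range. Chance flags about 1 in 20 groups, and 2 of the 40 groups tested here were flagged.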

How the results depend on the processing

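Each of the 20 member probes was fitted under up to 17 alternatives. Of 339 values 330 kept their direction and 8 passed the threshold: 1 higher without background correction (Abcc5), 1 lower with the Cy3 channel alone (Abcg2), 1 higher (Abcb1b) and 2 lower (Abcg2) with array weights, and 0 to 1 higher and 0 to 2 lower when 1 array was left out (Abcb11 without Mdr1a-/- replicate 3, Abcg2 without labelled FVB/N replicate 3). On gene means 1 member was higher and 1 lower. The share of all named genes called in that fit is not given here, so these calls cannot be set against it. Abcb1a kept its direction throughout, from -0.65 to -0.23. The 9 changes of direction were in Abcc1, Abcc4 and the Abcb4 probe below background, with adjusted p of 0.637 or more. Relative to Abcb1a, 10 alternatives were run (the brightest probe, the deposited log2 values and each array left out). In each of them 0 of 9 members passed, a count that says little, since so few arrays limit how small p can be. Abcc3 changed direction without labelled FVB/N replicate 2 (-0.09).

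Over all probes, 133 were higher and 115 lower with the file date as a block, 310 and 286 with the replicate block, and 1081 and 939 with array weights. Leaving out 1 array gave 250 to 783 higher and 247 to 675 lower, fewest without Mdr1a-/- replicate 4. That array is alone on its file date, which holds no array labelled FVB/N. Array and date cannot be told apart there, and the file date block takes that array out of the comparison. The count of higher probes moved by over 1.5 times without any array other than Mdr1a-/- replicates 2 and 3. Within the date that holds 2 arrays of each group limma called 0 and 0, with 4200 probes (10.2%) and 4 member probes at an unadjusted p under 0.05. The replicate block changed no call of a member. The causes were not tested. Calls were 51.2% higher in the reported fit and 35.2% higher with the Cy3 channel alone. The dim Abcb1a, Abcc2 and second Abcb4 probes, near background, limit what can be said of these genes.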

Other observations

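In RefSeq order the 5 measured protein-coding genes on either side of the P-glycoprotein cluster of chromosome 5 are Sri, Adam22, Dbf4, Slc25a40 and Rundc3b, then Crot, Tmem243, Dmtf1, Elapor2 and Grm3. They were looked up after the values of the cluster were seen. None was called on the arrays. Rundc3b, next to Abcb1a, gave -0.80 ± 0.21 (SE, limma adjusted p = 0.0825) on the arrays and -0.60 (adjusted p = 0.0169) in the authors' deposited table. The cell cycle kinase activator Dbf4 gave 0.92 ± 0.31 (adjusted p = 0.178), against 0.49 (adjusted p = 0.0662) in the authors' deposited table. Crot, the peroxisomal carnitine transferase that follows Abcb4, gave 0.18 ± 0.21 beside 0.12 in the authors' deposited table. The carrier Slc25a40 gave -0.18 ± 0.16 beside -0.11 in the authors' deposited table, and the calcium-binding Sri gave 0.06 ± 0.14 beside -0.08. Adam22 was below background on all 8 arrays. Tmem243 gave 0.00 beside -0.34 and Elapor2 -0.37 beside 0.12 in the authors' deposited table. For Abcb1a the same pair of values was -0.40 and -1.62, and for Abcb4 it was 0.11 and -1.12. No test of these gaps was made.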
